A study of Mus musculus with 12 samples.

Results

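Mouse cortical neurons that carried a normal-length huntingtin fragment were compared with neurons that carried the same kind of virus without it. The comparison holds 8 of the 12 samples of the series: 4 infected with lentivirus for exon 1 of huntingtin with 25 glutamines (Htt-25Q, titled WT Htt) and 4 infected with a control vector. They were chosen by those titles. All 12 samples were primary neurons from the cortex of Swiss Webster embryos at day 16, infected at 5 days in vitro and lysed for RNA at 10 days in vitro, and ribosomal RNA was depleted before sequencing. The other 4 samples carried an exon 1 of disease length, with 72 glutamines (Htt-72Q). The infection label of control vector 1, 3 and 4 is 'Empty vector' and that of control vector 2 is 'Control vector'. The labels name neither the promoter of the vector nor whether exon 1 is the mouse or the human sequence. They do not say whether the samples of a group came from separate cultures, so p-values measure only the spread between these samples. Each sample also carries a preparation number, which was used as a block. Preparation 22 holds control vector 1 and Htt-25Q 1, preparation 24 holds control vector 2 and Htt-25Q 2, and preparation 27_1 holds control vector 4 and Htt-25Q 3. Control vector 3 (preparation 26) shares its block only with an Htt-72Q sample. Htt-25Q 4 (preparation 27) is alone in its block, so the fit drops it from the fold changes. The fit holds all 12 samples, so those of Htt-72Q add to the estimates of the preparation terms and of the spread.

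Huntingtin is a large scaffold protein that binds motors, membranes and transcription factors. Its exon 1 codes for an N-terminal stretch, a run of glutamines from CAG codons and a run of prolines. Long runs cause Huntington disease, and exon 1 fragments with long runs aggregate and disturb transcription in neurons. A fragment with a run of normal length is the usual control for the length of the repeat, and the comparison with vector alone asks what that fragment does by itself.

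The coding part of the mouse exon 1 is shown because it is the part of Htt that the constructs are named for. It lies on GRCm38 at chr5:34761907-34762109, on the plus strand, in the exon chr5:34761744-34762109 of the transcript Htt-201 (GENCODE M21). It has 203 coding bases, and the capitals mark its longest run of glutamine codons, 7 codons (6 CAG and 1 CAA) that follow 17 other codons.
Htt exon 1, mouse: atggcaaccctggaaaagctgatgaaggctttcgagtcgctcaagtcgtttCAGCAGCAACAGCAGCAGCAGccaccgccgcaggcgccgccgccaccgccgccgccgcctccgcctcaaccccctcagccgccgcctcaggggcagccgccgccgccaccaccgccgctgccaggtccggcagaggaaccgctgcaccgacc
The constructs hold 25 or 72 glutamines, and their own sequence was not available to compare with the mouse exon.

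The Htt gene itself (ENSMUSG00000029104, chr5:34761740-34912534) stood at 238, 123, 89.7 and 123 CPM in control vector 1 to 4 and at 123, 128, 184 and 154 CPM in Htt-25Q 1 to 4. CPM here are counts per 1e6 counts, scaled by TMM, a factor that corrects for library composition. Control vector 1 was the highest of the 8 samples and control vector 3 the lowest, so the groups overlapped fully. The log2 fold change of Htt-25Q over control vector was -0.06 ± 0.21 (SE), with a 95% interval of 0.70-fold to 1.32-fold. Within preparations the log2 difference was -0.95 in 22, 0.06 in 24 and 0.57 in 27_1. Htt was shown to lie within 2-fold with all samples and in each of the 12 fits that leave out 1 sample. Its place within 1.5-fold (edgeR equivalence test, adjusted p = 0.0370) was lost in 8 of those 12 fits. Whether construct reads can be counted on the mouse gene is not known, so the value cannot show whether the constructs were expressed. Expression of the fragment was not checked in another way here, which limits the counts below.

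Total counts were 23.4, 16.8, 20.6 and 12.7 M (counts times 1e6) in control vector 1 to 4 and 23.1, 21.4, 27.5 and 18.1 M in Htt-25Q 1 to 4 (two-sided exact permutation test, p = 0.229, where 0.0286 is the smallest p that 4 against 4 allows). Mitochondrial ribosomal RNA took 8.98 ± 3.54% of counts in control vector and 10.7 ± 2.34% in Htt-25Q (SD, n = 4 each, exact permutation p = 0.429). Several genes split the samples across the groups: Gapdh lay at 35.4 and 36.2 CPM of the library total in control vector 2 and 4 and at 41.6 in Htt-25Q 3, against 9.16 to 13.1 in the other 5 samples. The mitochondrial gene mt-Nd2 split the same samples the opposite way, at 71.4 to 79.3 against 252 to 376 CPM of the total. The samples of preparation 24 therefore lie on different sides of this split, and those of 22 and 27_1 on the same side. Control vector 1 also stands apart, as the values of Polr2a, Syn1 and Shank1 below show. The part of these differences in the results was not tested beyond the fits without each sample or with the split as a covariate.

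No gene was called between Htt-25Q and control vector. Of 16346 genes tested, 0 were higher and 0 lower (0% each way) at a Benjamini-Hochberg adjusted p under 0.05 in the edgeR quasi-likelihood test with the preparation block, and the smallest adjusted p was 0.864. At an unadjusted p under 0.05 there were 656 genes (4.01%), 470 higher and 186 lower. DESeq2 called 0 genes with 597 at an unadjusted p under 0.05, and limma voom called 0 with 703. The same fit called 2050 genes higher and 2538 lower in Htt-72Q against the same controls, where 4 preparations hold both groups against 3 for Htt-25Q. With preparations 27 and 27_1 as 1 block, which brings Htt-25Q 4 into the fold changes, 0 genes were called and 1079 of 15441 had an unadjusted p under 0.05. The median log2 fold change over all genes was -0.01, with quartiles of -0.17 and 0.17. In 177 genes (1.08%) the 4 Htt-25Q values did not overlap the 4 control values, 105 higher and 72 lower.

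A test that calls nothing does not show that genes are alike, so each gene was also tested for equivalence. A gene was said to lie within a fold where one-sided tests rejected both a rise and a fall by that fold, with the larger p adjusted over all genes to under 0.05. By that rule 12186 genes (74.6%) lay within 2-fold, 15095 (92.3%) within 4-fold and 7225 (44.2%) within 1.5-fold. These shares rest on the filter, which could keep a gene for its reads in 1 sample, also one of Htt-72Q. With a filter by group, added after the data were seen, 12334 of 14707 genes lay within 2-fold and 7400 within 1.5-fold. The 2-fold statement was the firmer one: 10229 of the 12186 genes (83.9%) lay within 2-fold in each of the 12 fits that leave out 1 sample. Only 1852 of the 7225 (25.6%) lay within 1.5-fold in each of those fits. The 12 fits include those without an Htt-72Q sample or without Htt-25Q 4, samples that do not enter the fold change directly. With preparation 24 left out, an alternative added after the data were seen, 10872 genes lay within 2-fold and 0 within 1.5-fold.

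The level of a gene went with how closely it could be bounded. Among the 3169 genes below 1 CPM, 2.71% lay within 2-fold and 0% within 1.5-fold, and the median 95% interval reached 2.81-fold to either side of the estimate. At 1 to 10 CPM 76.3% of 3827 genes lay within 2-fold and 15.4% within 1.5-fold. At 10 to 100 CPM the shares of 7094 genes were 98.0% and 68.4%, and at 100 to 1000 CPM those of 2190 genes were 98.9% and 79.4%. All 66 genes above 1000 CPM lay within 2-fold and 71.2% of them within 1.5-fold, with a median half-width of 1.23-fold. Of the 13177 genes at or above 1 CPM, 1077 could not be placed within 2-fold.

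**Figure D1:**
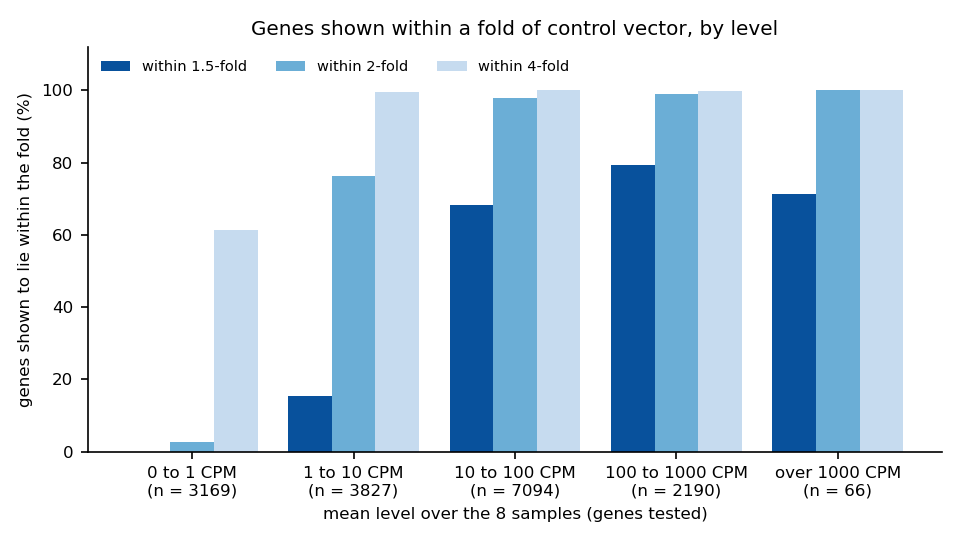
Share of tested genes (percent, vertical axis) shown to lie within 1.5-fold, 2-fold and 4-fold of control vector, in 5 classes of mean level over the 8 samples (TMM-scaled CPM, number of genes in parentheses). The 2-fold share rises from 2.71% below 1 CPM to 98.0% at 10 to 100 CPM, and the 1.5-fold share stays below 80% in each class.

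The genes with the smallest equivalence p are given with their values. Mgea5, which removes O-linked sugars from proteins (ENSMUSG00000025220, chr19:45750261-45783520), stood at 338, 336, 306 and 287 CPM in control vector 1 to 4 and at 337, 326, 287 and 281 CPM in Htt-25Q 1 to 4. Within the 3 preparations that hold both groups, the log2 differences were -0.0027, -0.0407 and 0.0034. The fold change was -0.00 ± 0.11 on the log2 scale (95% interval 0.85-fold to 1.17-fold, edgeR equivalence test at 1.5-fold, adjusted p = 0.00905). Rab10, a small GTPase of membrane traffic, stood at 355, 337, 338 and 320 CPM against 343, 342, 323 and 340 CPM in the same order. Its groups had nearly the same mean (337.4 and 336.9 CPM), and its interval ran from 0.84-fold to 1.16-fold. Mapt, which encodes the microtubule protein tau, had 1859, 1747, 1647 and 1472 CPM in the controls and 1660, 1721, 1541 and 1699 CPM in Htt-25Q, with an interval of 0.84-fold to 1.15-fold. Others among the 10 genes with the smallest equivalence p were Ppfia3, Gpm6b, Prkar1a, Napb, Arl8b and Cxadr. All 10 kept their place within 1.5-fold whichever sample was left out. They were picked by the equivalence p of these same samples, so this is no separate support. With preparation 24 left out 0 genes lay within 1.5-fold, so these 10 lost their place too.

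**Figure D2:**
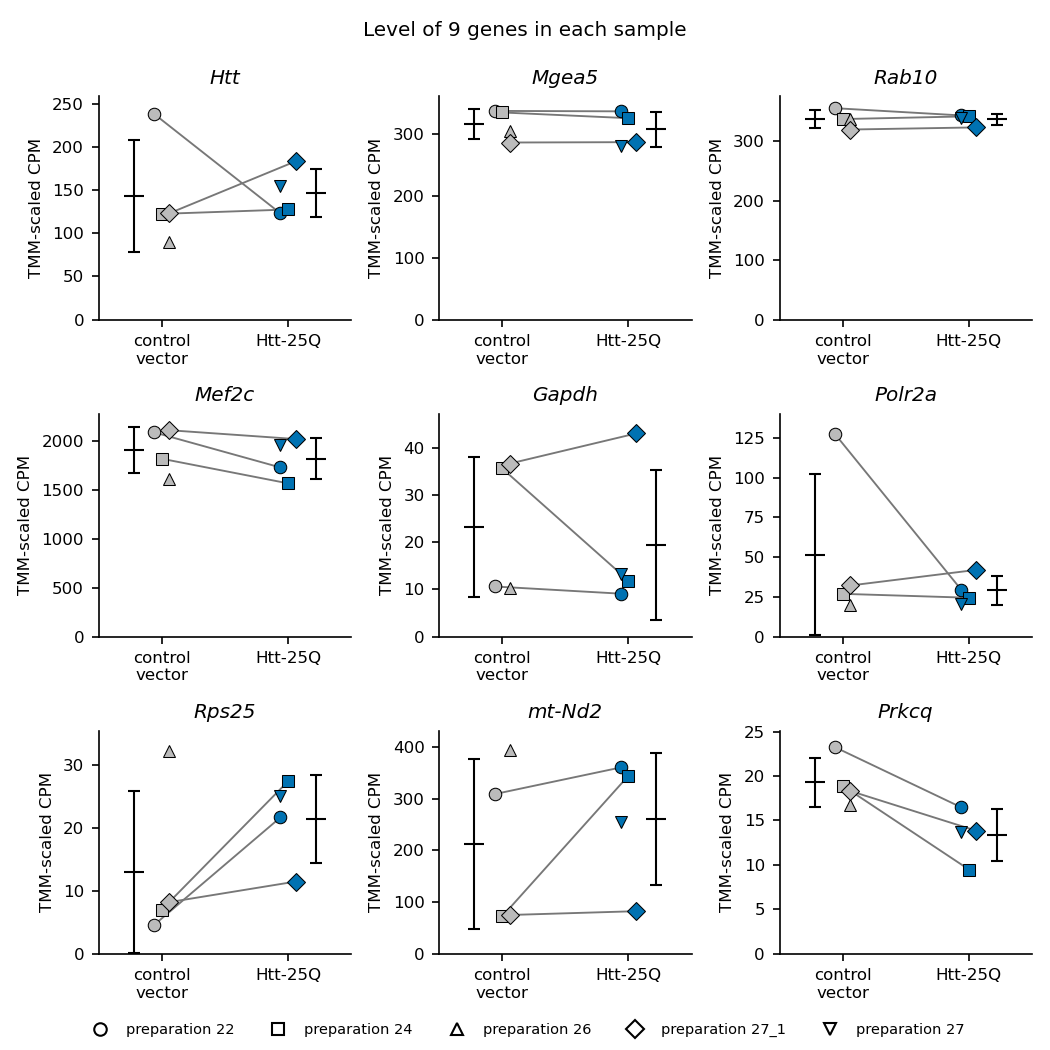
TMM-scaled CPM (vertical axes, from 0) of 9 genes in each control vector and Htt-25Q sample. Marker shapes give the preparation, lines join samples of the same preparation, and bars beside the points give mean ± SD (n = 4). Mgea5 and Rab10 lines are nearly flat, Polr2a is high only in control vector 1 at 128 CPM, and Gapdh and mt-Nd2 lines of preparation 24 cross most of the range.

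Genes often used to normalise expression were mostly bounded within 2-fold, with 2 exceptions. Of 20 such reference genes, 11 lay within 1.5-fold (among them Tbp, Hprt, Ppia, Ywhaz, Pgk1, Tfrc, Eif4a2, Cyc1, Atp5b and Tubb5) and 18 within 2-fold. Their median log2 fold change was -0.05, against -0.01 for all genes. Their shares of 55% and 90% stand beside 54.8% and 91.8% of all genes at or above 1 CPM. Atp5b, a subunit of the mitochondrial ATP synthase, stood at 949, 1193, 1319 and 1375 CPM in the controls and at 1136, 1186, 1261 and 1227 CPM in Htt-25Q. The Htt-25Q values all fell inside the control range, and the log2 fold change was 0.05 ± 0.12. Ywhaz, a 14-3-3 adaptor gene, stood at 268, 153 and 180 CPM in Htt-25Q 1 to 3, beside 330, 143 and 183 CPM in the controls of the same preparations, and the log2 fold change was -0.05 ± 0.12. Atp5b, Ywhaz and Tfrc stayed within 1.5-fold in each fit without 1 sample, and 17 of the 20 genes stayed within 2-fold. Actb, the gene of beta actin, had 4408, 3833, 2863 and 3749 CPM in the controls and 3135, 2620, 3834 and 3141 CPM in Htt-25Q. It was lower in 2 of the 3 pairs and higher in 1, at -0.33 ± 0.16 (95% interval 0.62-fold to 1.01-fold), so it lay within 2-fold but not 1.5-fold.

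Gapdh and Polr2a could be placed within neither fold. Gapdh, a glycolytic enzyme gene (chr6:125161853-125166467), stood at 10.6, 35.7, 10.2 and 36.7 CPM in control vector 1 to 4 and at 9.09, 11.9, 43.1 and 13.3 CPM in Htt-25Q 1 to 4. The difference of -0.47 ± 0.39 rested on preparation 24, where it was -1.58. It was -0.22 in 22 and 0.23 in 27_1, and -0.09 without control vector 2. Polr2a, the largest subunit of RNA polymerase II (chr11:69733997-69758637), stood at 128, 26.9, 19.7 and 32.1 CPM in the controls and at 29.4, 24.4, 42.0 and 20.5 CPM in Htt-25Q. Its difference of -0.56 ± 0.36 came from control vector 1 and was 0.05 without that sample. Gapdh has many near-identical copies in the genome, and how the authors' counting divided reads between copies is not given in the sources used here.

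**Figure D3:**
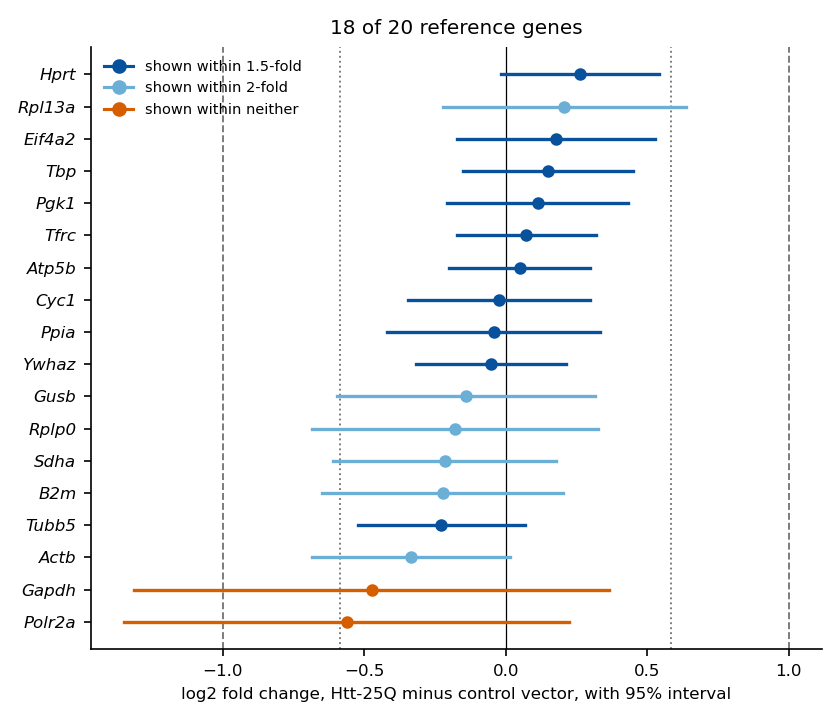
Log2 fold change of Htt-25Q minus control vector (points) with its 95% interval (lines) for 18 of the 20 reference genes, ordered by fold change. Dotted lines mark 1.5-fold and dashed lines 2-fold. Of these, only Gapdh and Polr2a have intervals that cross the 2-fold line, and both lie to the left of 0.

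The genes that came nearest to a call are given as values. The 6 with the smallest p among higher genes of at least 1 CPM were Rps25, Rps19, Rprl3, Ppp1r14b, Hist1h3h and Shd. Rps25, a protein of the small ribosomal subunit (chr9:44407714-44410405), stood at 4.55, 6.97, 32.1 and 8.16 CPM in control vector 1 to 4 and at 21.6, 27.3, 11.4 and 25 CPM in Htt-25Q 1 to 4. Control vector 3 was the highest of the 8 and Htt-25Q 3 the lowest of its group, so the groups overlapped. The log2 fold change was 1.67 ± 0.43 (unadjusted p = 0.00238, adjusted p = 0.864), higher in 3 of 3 pairs but by 2.22, 1.96 and 0.48. Rps19, of the same subunit, stood at 14.1, 13.6, 48.8 and 20.9 CPM against 40.7, 43.3, 18.7 and 38.1 CPM, a log2 fold change of 1.11 ± 0.31. Rprl3, a ribonuclease P RNA-like gene, had the widest range, from 7.45 CPM in control vector 1 to 264 CPM in control vector 3, with 152, 220, 50.7 and 135.4 CPM in Htt-25Q (2.79 ± 0.70). Each of these 3 genes was higher in control vector 3 than in any other control, and lowest of its group in Htt-25Q 3. Control vector 3 and Htt-25Q 1, 2 and 4 are also samples high in mt-Nd2, while control vector 1, high in mt-Nd2 too, was low in these genes. With no preparation block the log2 fold change of Rps25 was 0.73.

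On the lower side the 6 smallest p belonged to Prkcq, Lcat, Prtg, Ceacam16, Plxnd1 and Acvr2b. Prkcq, the protein kinase C theta gene (ENSMUSG00000026778, chr2:11172113-11301226), stood at 23.2, 18.9, 16.7 and 18.3 CPM in the controls and at 16.5, 9.47, 13.8 and 13.7 CPM in Htt-25Q. The groups did not overlap, and Htt-25Q was lower in 3 of 3 pairs. The log2 fold change was -0.64 ± 0.18 (unadjusted p = 0.00340, adjusted p = 0.864), and between -0.80 and -0.44 in the fits without 1 sample. It was just placed within 2-fold (edgeR equivalence test, adjusted p = 0.0467), but in only 5 of the 12 fits without 1 sample. The data therefore neither call a fall of Prkcq nor bound it firmly. Lcat, which encodes an enzyme that esterifies cholesterol on lipoproteins, stood at 2.45, 4.50, 3.50 and 5.76 CPM against 0.986, 1.99, 3.81 and 3.36 CPM (-0.996 ± 0.28). It too was lower in 3 of 3 pairs, though its groups overlapped. Plxnd1, a semaphorin receptor gene of axon guidance, had 203, 169, 110 and 153 CPM in the controls and 79.1, 88.6, 167 and 118 CPM in Htt-25Q (-0.67 ± 0.21). It was lower in 22 and 24 and higher in 27_1, by 0.12. Among genes not called, the largest estimates were Rprl3, Rps25, Hist1h3h, mt-Tc and Rpl14 upward and Gjc3, Prtg, Mir6236, Rhog and Myrf downward. These estimates of up to 2.79 upward and -1.68 downward are neither a change nor an absence of one: 33 genes of at least 1 CPM had an estimate beyond 2-fold and none was called.

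Proteins that bind huntingtin were taken next. All 25 members of the list of Htt and its partners lay within 2-fold and 15 within 1.5-fold (60%), with a median log2 fold change of -0.06. Of all genes at or above 1 CPM, 91.8% lay within 2-fold and 54.8% within 1.5-fold, so the list was not far from the background. In every fit without 1 sample 22 lay within 2-fold and 3 within 1.5-fold. Kif5c, a kinesin heavy chain of axonal transport, stood at 1252, 1043, 1109 and 989 CPM in the controls and at 1007, 989, 1071 and 1080 CPM in Htt-25Q. The Htt-25Q values did not leave the range of the controls, and the log2 fold change was -0.07 ± 0.13. Hap1, the huntingtin-associated protein that links huntingtin to motors, had 82.2, 91.2, 68.9 and 85.8 CPM in the controls and 86.5, 98.8, 98.9 and 98.4 CPM in Htt-25Q (0.20 ± 0.15). Htt-25Q was higher in 3 of 3 pairs, by at most 0.20, and the groups overlapped only through Htt-25Q 1. Zdhhc13 (0.05), a palmitoyl transferase, and Hip1r (-0.09), an endocytic factor, were also within 1.5-fold. Trip10 (1.29 to 4.49 CPM over the 8 samples) and Casp6 (1.20 to 1.92 CPM) had the widest intervals and lay within 2-fold. The Casp6 groups did not overlap, as in 1.08% of all genes, with Htt-25Q lower (-0.18 ± 0.36).

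**Figure D4:**
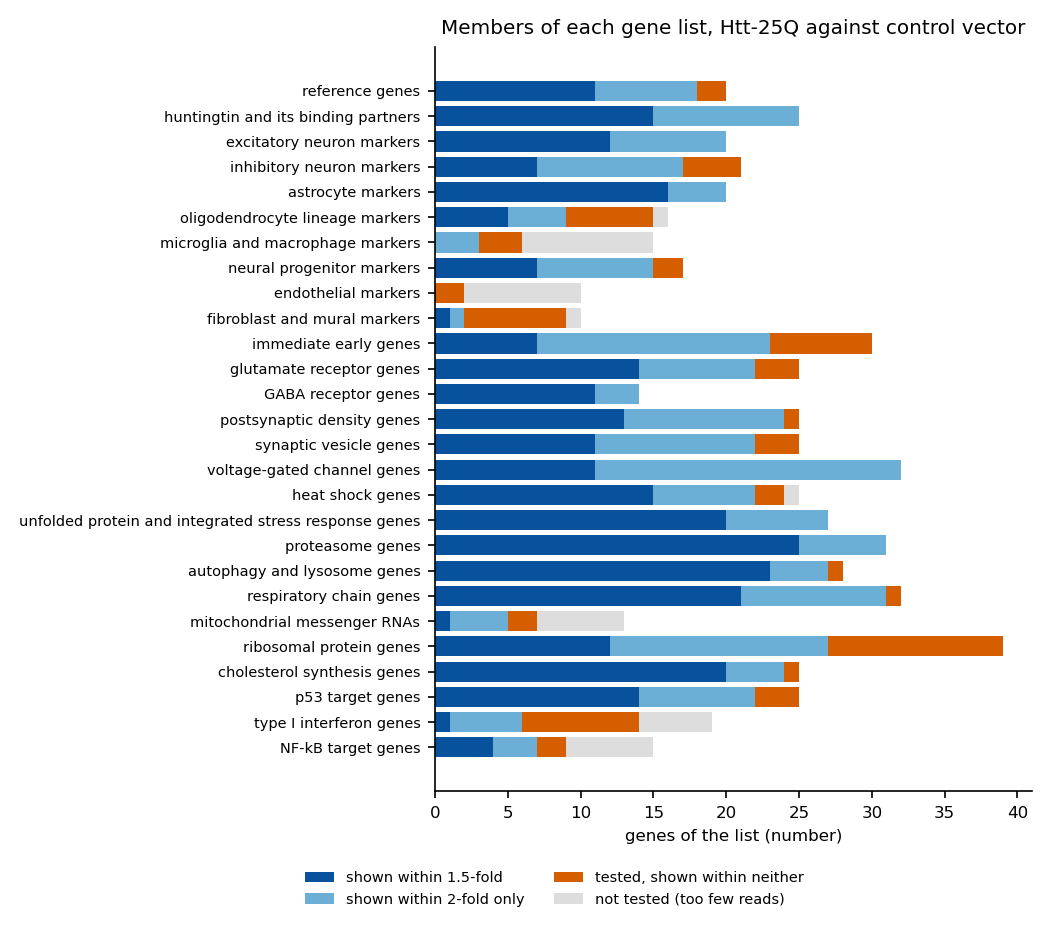
Number of genes in each list (horizontal axis) that lay within 1.5-fold, within 2-fold only or within neither, or that had too few reads to be tested. Bars of excitatory neuron, astrocyte, GABA receptor, channel and proteasome genes are blue over their whole length, and 0 genes were called in any list.

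Markers of the cells in the culture followed. All 20 excitatory neuron markers lay within 2-fold and 12 within 1.5-fold (median -0.06). Of 21 inhibitory neuron markers 17 lay within 2-fold and 7 within 1.5-fold (median -0.01). Within 1.5-fold the shares were 60% and 33.3%, against 54.8% of all genes at or above 1 CPM. Within 2-fold they were 100% and 81.0%, against 91.8%. Mef2c, a transcription factor of cortical neurons, stood at 2083, 1814, 1611 and 2105 CPM in the controls and at 1725, 1563, 2015 and 1952 CPM in Htt-25Q. It was lower in 3 of 3 pairs by 0.06 to 0.27, and the log2 fold change was -0.15 ± 0.11 (95% interval 0.76-fold to 1.07-fold). Lmo4, a cofactor of cortical patterning, had 216, 227, 227 and 237 CPM in the controls and 261, 229, 250 and 257 CPM in Htt-25Q (0.09 ± 0.12). Both stayed within 1.5-fold in every fit without 1 sample. Gad1, which makes GABA, stood at 115, 108, 114 and 149 CPM against 83.5, 107, 164 and 158 CPM (-0.09 ± 0.15). The high values are those of preparations 27_1 and 27 in both groups.

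Glia were also present, and their markers could be bounded where they had reads. Of 20 astrocyte markers all lay within 2-fold and 16 within 1.5-fold (median -0.15). These counts, and those of the lists that follow, stand beside 91.8% and 54.8% of all genes at or above 1 CPM. Glul, the glutamine synthetase of astrocytes, stood at 672, 706, 789 and 882 CPM in the controls and at 692, 718, 801 and 785 CPM in Htt-25Q (-0.01 ± 0.11). Slc1a3 (0.05), Ndrg2 (-0.09) and Mlc1 (0.06) were within 1.5-fold too. In the oligodendrocyte lineage 9 of 15 lay within 2-fold and 5 within 1.5-fold, among them Olig2 (0.14) and Pdgfra (-0.23), which mark precursors. Mobp, a myelin gene (0.57-fold to 3.29-fold), and Myrf, a factor of mature oligodendrocytes (0.22-fold to 1.09-fold), had the widest intervals of the list. Of 17 progenitor markers 15 lay within 2-fold and 7 within 1.5-fold (median 0.08). Of 15 microglia markers 9 had too few reads to test, with Tmem119 at 0 counts in all 8 samples. The 6 tested summed to 12.2 to 26.1 CPM in the controls and 18.3 to 24.9 CPM in Htt-25Q. Of 10 endothelial markers 2 could be tested, and these summed to at most 2.92 CPM in any of the 8 samples. The 9 tested of 10 fibroblast and mural markers summed to at most 45.8 CPM, and few of either list could be bounded. In bulk RNA, fewer cells of a type and less RNA per cell cannot be told apart.

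Immediate early genes, which neurons switch on with activity, leaned upward without a call. Of 30, 24 had a log2 fold change above 0, the median was 0.15 against -0.01 for all genes, 4 had an unadjusted p under 0.05 (13.3%, against 4.01% of all genes) and 0 were called. The medians in 22, 24 and 27_1 were 0.18, 0.22 and 0.12, and the median was 0.24 with preparations 27 and 27_1 as 1 block. By the equivalence rule 23 lay within 2-fold (76.7%) and 7 within 1.5-fold (23.3%). The shares of all genes at or above 1 CPM were 91.8% and 54.8%. Jun stood at 48.8, 36.5, 40.9 and 32.5 CPM in the controls and at 56.6, 43.4, 37.8 and 39.7 CPM in Htt-25Q, higher in 3 of 3 pairs by 0.22, 0.25 and 0.21 (0.23 ± 0.14). Its ranges overlapped, with preparation 22 the highest in both groups. Bdnf, a growth factor gene induced by activity, stood at 10.1, 13.9, 15.1 and 104 CPM in the controls and at 8.41, 13.8, 110 and 121 CPM in Htt-25Q. The values above 100 CPM are the samples of preparations 27_1 and 27 in both groups, and within preparations the log2 differences were -0.26, -0.01 and 0.09. Fosl2 (0.03) and Dusp6 (0.04) were within 1.5-fold with all samples. In the 12 fits without 1 sample 18 of the 30 lay within 2-fold each time, and 4 did when the other alternatives were added.

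Receptors, channels and synaptic genes leaned downward, again without a call. The median log2 fold change was -0.15 for 25 glutamate receptor genes, -0.07 for 14 GABA receptor genes, -0.17 for 25 postsynaptic density genes, -0.26 for 25 synaptic vesicle genes and -0.25 for 32 voltage-gated channel genes. In these lists 22, 14, 24, 22 and 32 genes lay within 2-fold, and 14, 11, 13, 11 and 11 within 1.5-fold. The shares within 2-fold were 88%, 100%, 96%, 88% and 100%, against 91.8% of all genes at or above 1 CPM. Within 1.5-fold they were 56%, 78.6%, 52%, 44% and 34.4%, against 54.8%, so the vesicle and channel lists fell below that share. The lean was not the same in each preparation. In 22, 24 and 27_1 the vesicle median was -0.65, -0.17 and 0.25, the channel median -0.62, -0.24 and 0.19, and the postsynaptic median -0.48, -0.15 and 0.16. The summed level of the vesicle genes was 9259 CPM in control vector 1, against 6473 to 7755 CPM in the other controls and 6050 to 8423 CPM in Htt-25Q, and that of the channel genes was 5277 CPM against 3131 to 3823 and 3129 to 4297 CPM.

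Single members show both patterns. Gria2, the AMPA receptor subunit that limits calcium entry, stood at 871, 945, 941 and 1049 CPM in the controls and at 878, 992, 1018 and 1044 CPM in Htt-25Q (0.03 ± 0.11, 95% interval 0.87-fold to 1.20-fold). Syp, the vesicle protein synaptophysin, had 626, 967, 881 and 1195 CPM against 806, 860, 1102 and 1011 CPM (0.02 ± 0.13). Both lay within 1.5-fold in every fit without 1 sample, as did 6 of the 25 glutamate receptor genes and 4 of the 25 vesicle genes. Shank1, a postsynaptic scaffold, stood at 158, 33.0, 39.6 and 36.2 CPM in the controls and at 42.6, 36.0, 53.3 and 38.4 CPM in Htt-25Q. Only control vector 1 was far from the others, and the log2 difference was -1.89 in preparation 22, 0.12 in 24 and 0.56 in 27_1. Syn1, a vesicle phosphoprotein, had 192, 70.3, 66.98 and 64.6 CPM against 64.4, 69.0, 91.2 and 86.8 CPM, with the same single high control. Cacna1a, the pore of P/Q-type calcium channels, had 144, 73.0, 50.8 and 76.1 CPM against 50.5, 49.3, 110 and 81.6 CPM (-0.42 ± 0.27). Without control vector 1 the log2 fold change was 0.24 for Shank1, 0.09 for Syn1 and -0.04 for Cacna1a.

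Genes of protein folding and turnover, which respond to misfolded protein, mostly lay within 2-fold. So did 98.0% of all genes at 10 to 100 CPM and 98.9% at 100 to 1000 CPM. Within 1.5-fold the shares of all genes at these levels were 68.4% and 79.4%. All 31 proteasome genes lay within 2-fold and 25 within 1.5-fold (median 0.06), and 30 stayed within 2-fold in every fit without 1 sample. Psmb2, a subunit of the catalytic core, stood at 110, 99.3, 113 and 119 CPM in the controls and at 120, 104, 100 and 102 CPM in Htt-25Q (0.00 ± 0.13). Of 24 heat shock genes 22 lay within 2-fold and 15 within 1.5-fold (median 0.00). Hsp90ab1, a cytosolic chaperone, had 1926, 2260, 2153 and 2234 CPM in the controls and 1941, 1907, 2304 and 2103 CPM in Htt-25Q (-0.09 ± 0.11). The groups of both genes overlapped. Of 27 genes of the unfolded protein and integrated stress responses all lay within 2-fold and 20 within 1.5-fold (median 0.07). Canx, a chaperone of the endoplasmic reticulum, stood at 626, 568, 629 and 637 CPM against 629, 594, 624 and 675 CPM (0.02 ± 0.11). Of 28 autophagy and lysosome genes 27 lay within 2-fold and 23 within 1.5-fold, and 14 stayed within 1.5-fold in every fit without 1 sample. Ctsl, a lysosomal protease, had 147, 151, 153 and 156 CPM in the controls and 162, 132, 157 and 146 CPM in Htt-25Q (0.00 ± 0.12).

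Metabolic and stress lists are read against the same shares. Of 25 cholesterol synthesis genes 24 lay within 2-fold and 20 within 1.5-fold (median -0.04). Of 32 respiratory chain genes 31 lay within 2-fold and 21 within 1.5-fold, with medians of 0.43, -0.16 and -0.15 in preparations 22, 24 and 27_1. Of 25 p53 target genes 22 lay within 2-fold and 14 within 1.5-fold (median 0.04), Mdm2 (-0.06), the negative regulator of p53, among them. Interferon genes had few reads, and 6 of 14 tested lay within 2-fold. Ifit1 and Oasl2 were near or at 0 CPM in several samples, which allows no statement on them. Of 9 NF-kB targets 7 lay within 2-fold.

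Ribosomal protein genes and mitochondrial transcripts had differences that varied with the preparation. Of 39 ribosomal protein genes 27 lay within 2-fold (69.2%) and 12 within 1.5-fold (30.8%). The shares were 91.8% and 54.8% of genes at or above 1 CPM, and 74.6% and 44.2% of all genes. Across the fits without 1 sample, 0 of the 39 lay within 1.5-fold each time. The median log2 fold change was 0.25, 29 were above 0, 10 had an unadjusted p under 0.05 (25.6%, against 4.01% of all genes) and 0 were called. The median was 0.63 in preparation 22, 0.08 in 24 and -0.12 in 27_1. Mitochondrial mt-Nd2 stood at 309, 71.9, 394 and 74.7 CPM against 361, 345, 82.1 and 255 CPM, a log2 fold change of 0.86 ± 0.47 that was 2.26 in preparation 24, 0.22 in 22 and 0.14 in 27_1. Of 13 mitochondrial messenger RNAs 6 had 0 counts in all 8 samples and were not tested. Both kinds of gene have near-identical nuclear copies, so reads may be divided between copies.

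Genes known to move with the long repeat bear on how the short one compares with vector. The list of 28 was chosen for its response to Htt-72Q against these same controls, so its Htt-72Q values are a description and the comparisons share 4 samples. With Htt-25Q 10 of the 28 lay within 1.5-fold (35.7%) and 18 within 2-fold (64.3%), and 0 were called. The shares were 44.2% and 74.6% of all genes, and 54.8% and 91.8% of genes at or above 1 CPM. Some members of the list lie below that level. Mef2c, given above at -0.15 ± 0.11 with Htt-25Q, was at -2.20 ± 0.10 with Htt-72Q. Camk2b, a subunit of the synaptic kinase CaMKII, stood at 938, 796, 753 and 747 CPM in the controls and at 752, 750, 819 and 856 CPM in Htt-25Q (-0.06 ± 0.13), against a mean of 242 CPM with Htt-72Q. Rgs4, a regulator of G protein signalling, had 374, 433, 545 and 1105 CPM in the controls and 416, 491, 1032 and 1098 CPM in Htt-25Q (0.14 ± 0.14), against a mean of 71.9 CPM with Htt-72Q. Its values near 1000 CPM and above belong to preparations 27_1 and 27. Gpr6, an orphan receptor gene, had 43.2, 80.8, 51.2 and 56.6 CPM against 41.5, 47.9, 52.0 and 36.8 CPM (-0.34 ± 0.20, within 2-fold), and a mean of 2.48 CPM with Htt-72Q. Mef2c, Lmo4, Camk2b and Arpp21 stayed within 1.5-fold in every fit without 1 sample.

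The members of that list that are near 0 in control neurons could not be bounded. Pou4f1, a POU transcription factor of sensory neurons, stood at 0.0446, 0.0600, 0.152 and 0.240 CPM in control vector 1 to 4 and at 0.600, 0.185, 0.301 and 0.393 CPM in Htt-25Q 1 to 4. The groups overlapped through Htt-25Q 2, and Htt-25Q was higher in 3 of 3 pairs. The log2 fold change was 1.39 ± 0.72 (unadjusted p = 0.0565, adjusted p = 0.864), with a 95% interval of 0.92-fold to 7.99-fold, against a mean of 9.89 CPM with Htt-72Q. Irs4, Lhx4, Isl2, Ebf3, Ripk4, Cdkn2a and Pgr15l likewise had intervals wider than 2-fold on at least one side. Kcng1 (-0.92 ± 0.44) and Fn1 (-0.40 ± 0.33) have more reads but had an SD of 22.9 and 24.8 CPM among the controls, and could not be placed either. With Htt-25Q these genes can be shown neither to change nor to stay.

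**Figure D5:**
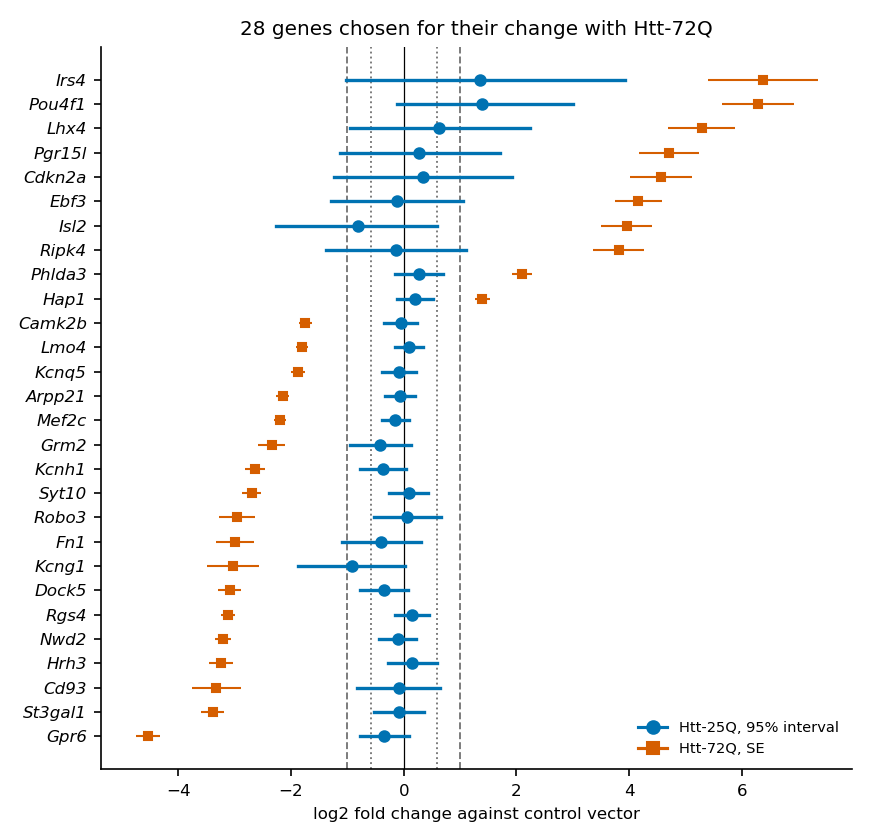
Log2 fold change against control vector of 28 genes chosen for their change with Htt-72Q: Htt-25Q with its 95% interval (circles) and Htt-72Q with its SE (squares). Dotted lines mark 1.5-fold and dashed lines 2-fold. Intervals of Htt-25Q are narrow for genes such as Mef2c and Camk2b and wide for Pou4f1 and Irs4, and both groups are set against the same 4 controls.

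The 3 preparations that hold both groups differed in how far their samples lay apart. Over genes of at least 1 CPM the SD of the log2 difference was 0.53 in preparation 22, 0.37 in 24 and 0.25 in 27_1. A difference of more than 2-fold was seen in 829 genes (6.29%), 230 genes (1.75%) and 59 genes (0.448%). Htt-25Q 3, of the pair with the least difference, decided the count of calls. Without it 447 genes were called, 247 higher and 200 lower, with 0 of these among the 7225 genes placed within 1.5-fold with all samples and 310 of them among those within 2-fold. In that fit 1.52% of all genes were called higher and 1.23% lower. Among the lists, 8 of 39 ribosomal protein genes were called higher, 6 of 25 synaptic vesicle genes and 4 of 32 channel genes were called lower, and no other list had more than 2 calls in either direction. The pairs then left are the one of control vector 1 and the one whose samples lie on different sides of the split by mt-Nd2, and the part of either in these calls was not tested.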

How the data were processed

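The authors deposited, per sample, read counts per gene with CPM and RPKM; per the submitters' processing notes STAR 2.0.4b, Subread and featureCounts 1.45 were used with GRCm38, with no roles or settings. The deposited CPM column followed from the counts in 12 of 12 files (largest difference 5.09e-10), so only counts were used. How strand and multi-mapping reads were handled, and with which annotation, is not stated in the sources used here.

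Counts of 12 samples were fitted with edgeR 4.0.16 (R 4.3.3) on preparation and group, TMM scaling and filterByExpr at a minimum count of 10, which kept 16346 of 41388 genes. The fit has 5 residual and 8.2 prior degrees of freedom. Fold changes are log2 Htt-25Q minus control vector ± SE, intervals are 95%, and levels in text are TMM-scaled CPM. Equivalence was tested with offsets shifted by the fold, adjusted over all genes tested. Within-preparation differences use log2 CPM with a prior count of 2. Calls and intervals were tested on artificial counts. Total counts were 12.7 to 27.5 M, and no sample repeated another.

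Residuals from group means correlated above 0.1 in 10 of 10 same-preparation pairs (median 0.305), at 0.288 to 0.545 in the 3 pairs of Htt-25Q and control. The median of other pairs was -0.17, but these include all pairs within a group, whose residuals tend to correlate negatively by construction. Pairs with the same title number, many also of 1 preparation, passed 0.1 in 10 of 12. Htt-25Q 2 and control vector 3, of preparations 24 and 26, correlated at 0.535. The correlations alone do not settle the pairing. Htt-25Q 4, of preparation 27, correlated at 0.388 to 0.495 with the 3 samples of 27_1, and whether 27 and 27_1 are 1 preparation is not stated; they are separate blocks here and 1 block in an alternative. The preparation block was part of the set comparison, so it is in the main fit. Alternatives were DESeq2 1.42.0, limma voom 3.58.1, other blocks, scalings, filters, covariates and leaving out each sample.

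Named genes are Htt, the 6 smallest p per direction and the 5 largest estimates per direction at 1 CPM or more, the 10 smallest equivalence p, all reference and Htt-72Q list genes, and per list up to 4 smallest equivalence p and the 1 or 2 widest intervals. Predicted genes and pseudogenes were skipped, and a few other genes are not reported here by name. Samples, lists and members were chosen with earlier results of these data known.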

Additional observations from a re-analysis of the deposited data

Results flagged for a closer look

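In groups of 4, a sample was set aside for a closer look where its gap to the nearest other exceeded Dixon's 95% critical share of the group's range. For independent groups chance alone sets aside about 1 in 20, and 11 of 84 were. The genes checked include some named for wide intervals or large estimates, and all share the same samples. The rate of 1 in 20 is therefore no benchmark here. Control vector 3 had the highest share of mitochondrial ribosomal RNA among the controls, at 14.2%, and stood above the other controls for Rps25, at 32.1 CPM, and for Rprl3, at 264 CPM. Control vector 1 stood above the other controls for Polr2a (128 CPM), Syn1 (192 CPM) and Shank1 (158 CPM). Control vector 4 stood above the other controls for Bdnf, at 104 CPM, and for Gad1, at 149 CPM. Both values are close to those of Htt-25Q 3 from the same preparation, at 110 and 164 CPM. Control vector 2 was the lowest control for Canx, at 568 CPM. Htt-25Q 3 stood above its group for Gapdh, at 43.1 CPM, and Htt-25Q 1 was the lowest of its group for Hap1, at 86.5 CPM. The cause of these values was not tested.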

How the results depend on the processing

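The count of 0 calls held in each alternative but 2. With no filter on low counts 65 genes were called higher and 7 lower, all 72 of which had been tested with the filter; without it the fit drew each gene's variance fully to the trend, with infinite prior degrees of freedom against 8.2. Leaving out 1 sample gave 0 to 247 higher and 0 to 200 lower calls, and calls appeared only without Htt-25Q 3. The fits without 1 sample placed 2281 to 7617 genes within 1.5-fold, against 7225 with all. The lowest were 2281 without Htt-25Q 2, 3071 without Htt-25Q 3, 3220 without control vector 2 and 3777 without control vector 4. Without the replicate block 7854 genes lay within 1.5-fold and 12523 within 2-fold, and 0 were called. The other alternatives placed 6351 to 9012 genes within 1.5-fold. With preparation 24 left out, an alternative added after the data were seen, 0 genes lay within 1.5-fold. For these counts the cause was not tested. With preparations 27 and 27_1 as 1 replicate block 8554 genes lay within 1.5-fold and 12675 within 2-fold. Of genes below 1 CPM 2.71% lay within 2-fold, so little can be said of them. Depth itself was not varied.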
